A study of Mus musculus with 19 samples.

Results

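The 5 genes Dio1, Dio2, Thra, Thrb and Thrsp, which activate thyroid hormone, bind it or respond to it, were followed by their symbols through 3 mouse RNA-seq tables, out of 55740 genes listed in at least 1 of the tables. All 5 were listed for a panel of 7 tissues and for cold brown adipose tissue (BAT), while the table of cold inguinal white adipose tissue (iWAT), which lists fewer genes, held 4 of them and did not list Dio1. The 19 libraries were bulk profiles in FPKM, fragment counts scaled for transcript length and for library size, so that levels could be compared between genes per length. The tissue panel had 1 library each from brain, heart, small intestine, liver, tibialis anterior and both white and brown fat of wild-type (WT) C57BL/6J mice on chow. The cold libraries were 3 WT and 3 MCK-Musclin for iWAT and again 3 and 3 for BAT, from male mice aged 5 months and fed chow, kept at 8 °C for 1 week. MCK-Musclin mice carry the coding sequence of Musclin, the protein of the gene Ostn, behind the mouse muscle creatine kinase promoter, which directs expression to muscle. They came from pronuclear injection and were backcrossed to C57BL/6J, and which founder line was sequenced, and whether the iWAT and BAT libraries came from the same mice, were not stated. The study's question for the cold libraries was what the muscle transgene does to gene expression in the fat depots.

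The thyroid gland releases mostly thyroxine, a prohormone, and deiodinase enzymes in target tissues remove an iodine atom to make the active hormone triiodothyronine. The active hormone binds nuclear receptors that sit on DNA with a retinoid X receptor partner, and hormone binding exchanges corepressors for coactivators. In brown fat, noradrenaline acts through cyclic AMP to induce the type 2 deiodinase, and the hormone made inside the cell is needed for full heat production, while in liver and fat the hormone raises genes of fatty acid synthesis.

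The tissue labels were checked against marker genes. Of the 7 tissues, the summed FPKM of 4 liver markers was highest in liver at 34332, that of 4 heart markers in heart at 29725, that of 4 brain markers in brain at 4883 and that of 4 intestinal markers in small intestine at 1851. The sum of 10 fast muscle markers was highest in tibialis anterior at 140549, and that of 9 adipocyte markers in white adipose at 14162. The sum of 10 brown and beige fat markers was highest in brown adipose at 2613, mostly from Cidea (1638 FPKM). Of these 10, Elovl3 was highest in liver, Ppargc1a in heart and Dio2 in brain. The brown fat gene Ucp1 reached 467 FPKM in brown adipose and was listed at 0 in white adipose. Ostn itself was listed at 7.43 FPKM in tibialis anterior. In cold BAT, Ostn was at 37.9, 31.6 and 30.3 FPKM in MCK-Musclin, and all 3 WT values were listed at 0. In cold iWAT, Ostn was listed at 0, 0 and 0.225 FPKM in WT and at 0, 5.17 and 4.21 FPKM in MCK-Musclin, so the transgene did not separate MCK-Musclin library 1 from WT. That library also had next to no signal from the 10 fast muscle markers (summed 11.1 FPKM, 2 of them at 0), so its label could not be checked from the transgene, and the values of the members and of the related gene lists in iWAT are given with and without it. The same limit held for WT library 1, with Ostn listed at 0 and fast muscle markers at a sum of 10.9 FPKM (2 of them at 0), so its 0 for Ostn does not check its label either.

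The members lie on 5 chromosomes of the GRCm38 assembly and are protein-coding. Dio2 (ENSMUSG00000007682) spans chr12:90724552-90738438 on the minus strand with 1 annotated transcript, and Dio1 (ENSMUSG00000034785) spans chr4:107291465-107307169 on the minus strand with 8. The receptor gene Thra (ENSMUSG00000058756) spans chr11:98740638-98769006 on the plus strand with 9 transcripts, and Thrb (ENSMUSG00000021779) spans chr14:17660261-18038090 on the plus strand with 7. Thrsp (ENSMUSG00000035686) spans chr7:97412938-97417730 on the minus strand with 2. Thra shares 263 exonic bases, or 5.70% of its exonic length, with Nr1d1 on the opposite strand, and Dio2 shares 100, or 1.72%, with the long non-coding RNA gene Gm26512. The libraries were unstranded, so reads from those bases could not be assigned to 1 of the pair, and gene totals did not separate the hormone-binding from the non-binding products of Thra.

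Promoter sequence was matched for 4 of the 5 members, with 2 annotated starts for Thrb, in windows of 250 bases upstream of the RefSeq start on GRCm38.p6. RefSeq and the annotation of the gene spans above place some starts differently. The Thrsp window overlaps the end of the gene span, the Thrb windows lie inside it and the Dio2 window lies beyond it, so motif distances hold for the RefSeq start alone. Thra was the member without a match. Each window was searched on both strands for the cyclic AMP response element TGACGTCA, the nuclear receptor half-site AGGTCA and its direct repeat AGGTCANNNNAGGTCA, and also for the CCAAT box, the TATA box in the form TATAAA and the E-box in the form CACGTG. Among 32851 windows of that length, 1.55% held TGACGTCA, 14.0% AGGTCA, 0.0152% the direct repeat, 33.8% CCAAT, 12.4% TATAAA and 6.02% CACGTG. Dio2 and Thrsp are printed because one is the cold-inducible enzyme and the other the hormone-responsive target measured in both fat depots, and Thrb because it was the member window that held AGGTCA. The Dio2 window, chr12:90739039-90739288 on the minus strand, held TGACGTCA from 95 to 88 bases before the start and TATAAA from 30 to 25. The Thrsp window, chr7:97417551-97417800 on the minus strand, held CCAAT from 52 to 48 bases before the start and its reverse complement ATTGG from 79 to 75. The first Thrb window, chr14:17660710-17660959 on the plus strand, held AGGTCA from 184 to 179 bases before the start. The second Thrb window, chr14:17981394-17981643, held CACGTG from 193 to 188 and TATAAA from 167 to 162, and the Dio1 window held none of the 6 motifs. A match is a description of letters, and no binding was measured. In the sequences, capitals mark the matches and the rest is in lower case.
Dio2: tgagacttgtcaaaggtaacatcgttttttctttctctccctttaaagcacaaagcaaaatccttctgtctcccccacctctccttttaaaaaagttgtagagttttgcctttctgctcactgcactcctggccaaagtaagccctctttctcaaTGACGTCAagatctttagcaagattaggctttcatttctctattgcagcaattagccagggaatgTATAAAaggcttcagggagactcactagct
Thrsp: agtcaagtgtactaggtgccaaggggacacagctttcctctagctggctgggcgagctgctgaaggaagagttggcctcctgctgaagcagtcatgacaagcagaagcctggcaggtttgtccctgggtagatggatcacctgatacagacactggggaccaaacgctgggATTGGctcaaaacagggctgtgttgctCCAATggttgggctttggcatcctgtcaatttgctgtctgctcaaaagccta
Thrb: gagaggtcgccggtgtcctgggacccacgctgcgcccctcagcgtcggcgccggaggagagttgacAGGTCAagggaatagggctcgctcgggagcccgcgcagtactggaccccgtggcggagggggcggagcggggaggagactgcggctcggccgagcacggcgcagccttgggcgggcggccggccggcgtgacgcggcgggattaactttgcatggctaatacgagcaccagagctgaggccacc

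Across the 7 tissues the deiodinases were the most restricted members, and with 1 library per tissue no spread could be set against the order of tissues. Dio1, the enzyme that makes active hormone in liver for the circulation, was listed at 32.5 FPKM in liver, 6.50 in small intestine and 0.0364 in white adipose, and at 0 in heart, tibialis anterior, brain and brown adipose. Liver thus held 83.2% of its FPKM summed over the tissues, 4.99 times the level in small intestine. Dio2, the enzyme that makes active hormone for use within the cell, was listed at 10.9 FPKM in brain and 6.82 in brown adipose. Its other values were 0.549 FPKM in tibialis anterior, 0.399 in white adipose, 0.209 in heart, 0.0316 in small intestine and 0 in liver. Transcripts of the activating enzymes therefore lay mostly in different tissues, Dio1 in liver and intestine and Dio2 in brain and brown fat. Dio3, which inactivates the hormone, was listed at 0.679 FPKM in white adipose and at 0 in the other 6 tissues.

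The receptors were more widely spread. Thra, the receptor gene with the higher level in 6 of the 7 tissues, was listed at 254 FPKM in brain, 81.5 in white adipose, 59.2 in brown adipose, 41.7 in small intestine, 32.8 in tibialis anterior, 31.4 in heart and 6.70 in liver. Brain was 3.12 times the next tissue and 37.9 times liver. Thrb, the receptor gene that carries most of the hormone response of liver, was listed at 11.96 FPKM in brain, 11.6 in brown adipose, 7.79 in white adipose, 7.50 in liver, 6.36 in small intestine, 5.93 in heart and 1.88 in tibialis anterior. The brain and brown adipose values of Thrb were close, and median-ratio scaling between libraries put brown adipose first. On the FPKM scale the ratio of Thra to Thrb ran from 21.2 in brain and 17.5 in tibialis anterior through 10.5 in white adipose, 6.56 in small intestine, 5.29 in heart and 5.11 in brown adipose to 0.893 in liver. Liver was the 1 tissue with less Thra than Thrb, and this ratio does not depend on the scaling of a library.

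Thrsp, which encodes a nuclear protein that responds to thyroid hormone and takes part in fatty acid synthesis, marked the lipid-making tissues. It was listed at 948 FPKM in brown adipose, 911 in liver and 651 in white adipose, against 14.7 in heart, 13.1 in brain, 8.50 in tibialis anterior and 2.58 in small intestine. Those 3 tissues held 98.5% of its summed FPKM, and the highest tissue was 367 times the lowest. Brown adipose and liver were close enough that rescaling each library to a common total (TPM) or median-ratio scaling put liver first. Brain, with the highest gene total of Thra (254 FPKM), had 13.1 FPKM of Thrsp. Liver, with the least Thra (6.70 FPKM) and with 7.50 FPKM of Thrb, had 911. Gene totals of Thra do not separate products that bind the hormone from those that do not.

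**Figure D1:**
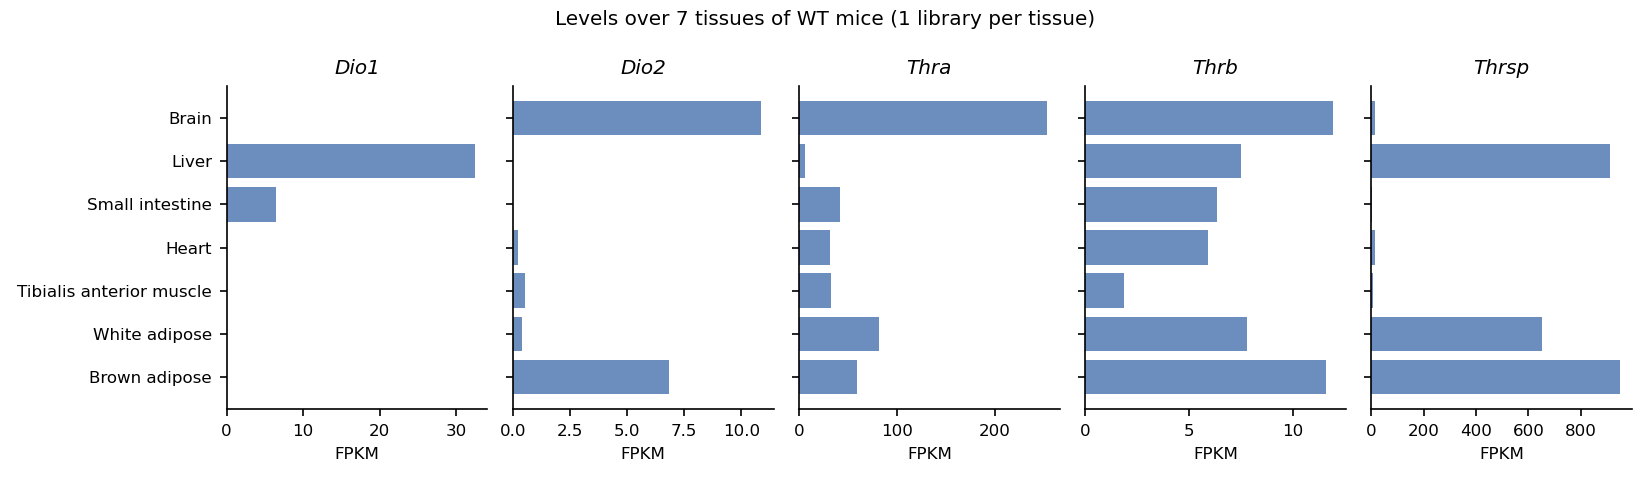
FPKM (horizontal axis, from 0, its own scale in each panel) of the 5 members in 7 WT tissues, 1 library per bar. Dio1 sits in liver (32.5) and small intestine (6.50), Dio2 in brain (10.9) and brown adipose (6.82), and Thrsp in brown adipose, liver and white adipose.

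For each member, the 5 genes whose log2(FPKM + 1) over the 7 tissues had the highest Pearson r with it were listed among 13444 genes, as a description of shape over tissues that share their libraries. For Dio1 these were Acot12 (r = 1.00), Rdh9, Habp2, Stra6l and Hsd17b2 (r = 0.999). For Dio2 they were S100b (r = 0.993), Vat1l, Zic1, Dlk1 and A830018L16Rik (r = 0.953). For Thra they were Abcb9 (r = 0.990), Atrip, Atxn1, Dtx3 and Lysmd2 (r = 0.984). For Thrb they were Anp32a (r = 0.991), Lrrc8a, Atxn2, Btf3l4 and Macf1 (r = 0.939). For Thrsp they were Fmo1 (r = 0.972), Klb, Inca1, Abhd15 and Dhdh (r = 0.957).

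In the cold, WT levels in the fat depots were set side by side without a test, because the tables were separate and RNA was extracted with a kit for white fat and with TRIzol for the rest. Dio2 averaged 30.6 ± 17.6 FPKM (SD, n = 3) in BAT and 5.19 ± 3.06 in iWAT, a ratio of 5.90, or 8.18 when both tables were rescaled over the genes they share. Thrsp averaged 2877 ± 358 FPKM in BAT and 1836 ± 420 in iWAT, a ratio of 1.57, or 2.17 after that rescaling. Thra averaged 30.5 ± 0.569 FPKM in BAT and 57.4 ± 3.44 in iWAT, a ratio of 0.532, or 0.737 after that rescaling. Thrb averaged 6.96 ± 0.557 FPKM in BAT and 8.76 ± 3.24 in iWAT, a ratio of 0.795 that crossed to 1.10 after rescaling. BAT thus had more transcript of the activating enzyme Dio2 and of the target Thrsp and less of Thra, with no test made. The order for Thrb depended on scaling. Dio1 was listed at 0 in all 6 BAT libraries. The number of reads behind an FPKM was not known, so no counting error could be attached to low values.

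**Figure D2:**
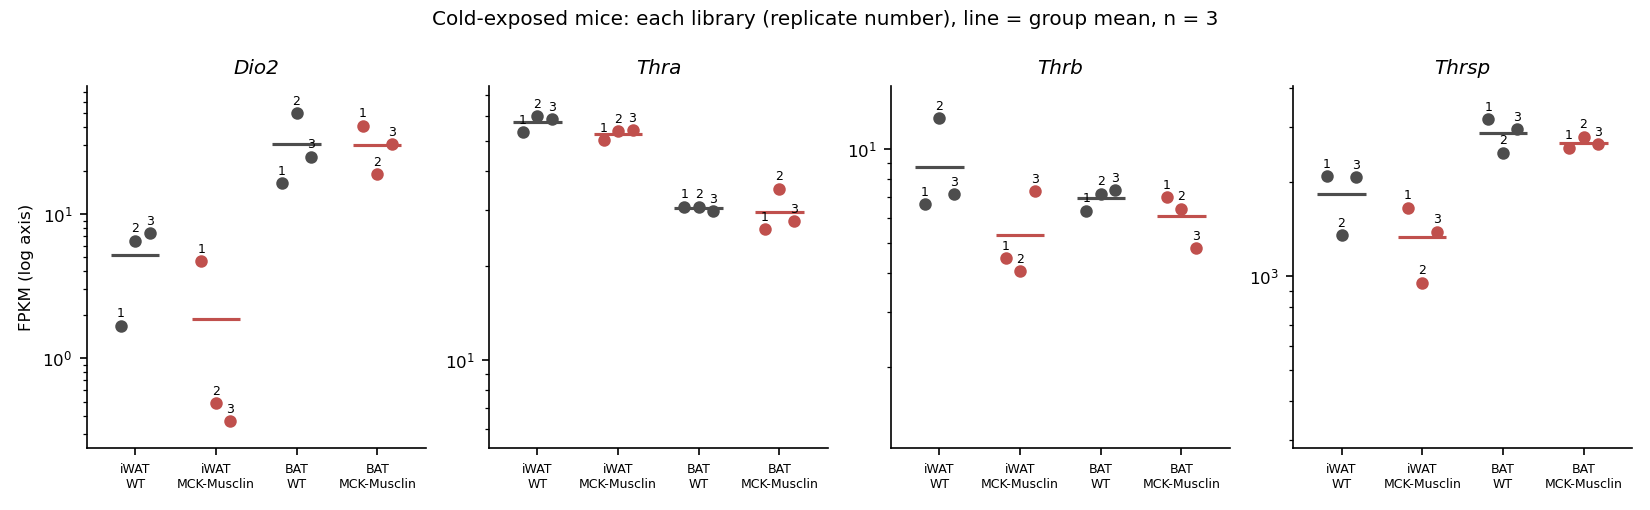
FPKM (vertical log axis) of 4 members in each cold library, numbered by replicate, with a line at each group mean of 3 libraries. The WT and MCK-Musclin points overlap for each gene in each depot, and the widest range is that of Dio2 in iWAT, 0.364 to 7.34.

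In cold iWAT, MCK-Musclin was compared with WT by limma, a linear model that shares variance between genes, on log2(FPKM + 1) over the 12197 genes with a mean of at least 1 FPKM. A gene was called at a Benjamini-Hochberg adjusted p under 0.05. By limma, 0 of the 4 listed members were called, beside 0 (0%) of the genes tested. At an unadjusted p under 0.05 with all 6 libraries, 0 of the 4 members were lower and 0 higher in MCK-Musclin, while 3.44% of genes tested were lower (420 genes) and 13.1% were higher (1592 genes). The study's thresholds, an unadjusted p under 0.05 and a log2 fold change beyond 0.5, were also applied to the limma fit, which is not the study's own test, and 0 of the 4 were lower, beside 0.902% (110 genes). Those counts of members moved with the libraries and the scaling. Without WT library 1, 2 of the 4 were lower at an unadjusted p under 0.05, Dio2 (p 0.0234) and Thrb (p 0.0364). Over all genes, 493 were lower in that fit. Dropping MCK-Musclin library 1 also gave 2, Dio2 (p 0.00634) and Thrsp (p 0.0480), beside 459 genes lower. Dropping WT library 2 gave 1, Thrsp (p 0.0301), beside 327 genes lower. Dropping MCK-Musclin library 3 gave 1, Thrb (p 0.0163), beside 276 genes lower. Thrb was the 1 lower member after TPM rescaling (p 0.0391, beside 657 genes lower) and after median-ratio scaling (p 0.0354, beside 826). Each of these also passed the study's cutoff, and limma adjustment called 0 of them, with adjusted p from 0.196 to 0.373. Over all genes, the adjusted count was 0 with all 6 libraries and 86 without WT library 1, dropping MCK-Musclin library 2 gave 2 calls and dropping its library 3 gave 1, and leaving out WT library 1 or MCK-Musclin library 1 gave 213 and 178 at the study cutoff. The split between lower and higher depended on scaling, with 657 lower and 1198 higher after TPM rescaling, 826 and 1038 after median-ratio scaling and 42 and 3211 when each library was centred on adipocyte markers. Centring adds the same amount to the log2 fold change of every gene, and it moved the median of all genes from 0.06 to 0.25 and the adjusted count to 316, so values under it are read relative to that shift.

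Dio2 had the widest spread of the members in iWAT. Its levels were 1.68, 6.54 and 7.34 FPKM in the WT libraries and 4.73, 0.486 and 0.364 FPKM in the MCK-Musclin libraries. MCK-Musclin libraries 2 and 3 were below every WT library, whereas MCK-Musclin library 1 lay above WT library 1, so the groups overlapped. The means were 5.19 ± 3.06 FPKM in WT and 1.86 ± 2.49 FPKM in MCK-Musclin (SD, n = 3 each). The limma log2 fold change was -1.29 (SE 0.64) with an adjusted p of 0.360, and the pseudocount of 1 compresses values this low, giving -2.02 with a pseudocount of 0.1. Without MCK-Musclin library 1, the log2 fold change was -1.96 with an adjusted p of 0.196, within a range of -1.96 to -0.92 over the fits that each left out 1 library. Without WT library 1 it was -1.81 for Dio2, -0.17 for Thra, -0.77 for Thrb and -0.36 for Thrsp. For Dio2, in the 6 fits the adjusted p ran from 0.196 to 0.634, so the difference did not pass the threshold in any of them.

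The receptors followed, and in both the groups overlapped. Thra was listed at 53.5, 60.0 and 58.8 FPKM in WT iWAT and at 50.4, 53.7 and 54.2 FPKM in MCK-Musclin iWAT. WT library 1 lay among the MCK-Musclin libraries, and all 6 values lay within 1.19-fold. Its log2 fold change was -0.12 (SE 0.09, adjusted p 0.545), it was -0.087 without MCK-Musclin library 1, and it turned to 0.065 when libraries were centred on adipocyte markers. Thrb was listed at 6.65, 12.5 and 7.14 FPKM in WT and at 4.45, 4.06 and 7.32 FPKM in MCK-Musclin. WT library 2 stood above the rest, and MCK-Musclin library 3 lay among the WT values. Its log2 fold change was -0.62 (SE 0.27) with an adjusted p of 0.306, and -0.54 without MCK-Musclin library 1 (adjusted p 0.459). It was -0.37 without WT library 2 (adjusted p 0.548).

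The target Thrsp was the most abundant of the 4 listed members in iWAT. Its levels were 2087, 1351 and 2071 FPKM in WT and 1657, 956 and 1390 FPKM in MCK-Musclin. Its lowest value was in MCK-Musclin library 2, and MCK-Musclin libraries 1 and 3 lay above WT library 2. The log2 fold change was -0.47 (SE 0.25) with an adjusted p of 0.398, and -0.64 without MCK-Musclin library 1 (adjusted p 0.313). It was -0.25 without MCK-Musclin library 2 (adjusted p 0.654) and -0.28 after adipocyte centring. The 4 tested members had a median log2 fold change of -0.55 (-0.59 without MCK-Musclin library 1), with 4 of 4 below 0. Over all genes tested the median was 0.06 and 38.7% were below 0. After adipocyte centring 3 of 4 members were below 0, where Thra turned, beside an all-gene median of 0.25. The ratio of Thra to Thrb was 8.05, 4.80 and 8.24 in WT iWAT and 11.3, 13.2 and 7.40 in MCK-Musclin iWAT, so it too overlapped between groups.

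The spread of Dio2 between iWAT libraries went along with that of other brown and beige fat genes. The summed FPKM of 10 such markers, Dio2 and Ucp1 among them and Cidea the most abundant, was 509, 748 and 901 in WT and 571, 193 and 110 in MCK-Musclin. Of these 10 markers, 10 were below 0 and 7 were lower at an unadjusted p under 0.05, beside 3.44% of all genes, with a median log2 fold change of -1.06 and 0 called by limma after adjustment. The 7 became 10 without MCK-Musclin library 1, 1 without its library 2 or 3, 3 without WT library 2 and 2 without WT library 3. Over all genes, 276 to 493 were lower in the 6 fits that each left out 1 library. Ucp1, the uncoupling protein of heat production, was at 130, 248 and 346 FPKM in WT and at 173, 31.6 and 2.91 FPKM in MCK-Musclin. Dio2 and Ucp1 thus shared their 2 lowest libraries, MCK-Musclin 2 and 3, and their 2 highest, WT 2 and 3, and the marker sum contains both genes. In bulk tissue, fewer cells of a type and less RNA per cell cannot be told apart. Adipocyte markers (9 genes, Fabp4 the most abundant) summed to 14919, 15775 and 16085 FPKM in WT and to 13319, 14158 and 15195 FPKM in MCK-Musclin. B cell markers (5 genes, Cd79a the most abundant) summed to 233, 139 and 121 FPKM in WT and to 262, 354 and 344 FPKM in MCK-Musclin. T cell markers (6 genes, Cd3g the most abundant) summed to 104, 81.8 and 107 FPKM in WT and to 151, 148 and 153 FPKM in MCK-Musclin. Macrophage markers (5 genes, Lyz2 the most abundant) summed to 514, 452 and 454 FPKM in WT and to 696, 499 and 702 FPKM in MCK-Musclin, which overlapped. At an unadjusted p under 0.05, 5 of 5 B cell, 6 of 6 T cell and 2 of 5 macrophage markers were higher, beside 13.1% of all genes, and limma called 0 after adjustment with all 6 libraries and FPKM as listed. Lymphocyte markers were thus higher in each MCK-Musclin library than in each WT library, as were 2183 of all 12197 genes tested. Among WT libraries the B cell sum was highest in library 1, the WT library with the least Dio2. Fast muscle markers summed to 10.9, 831 and 4656 FPKM in WT and to 11.1, 160 and 190 FPKM in MCK-Musclin, with 2 of the 10 at 0 in WT library 1 and in MCK-Musclin library 1. The part of these other tissues and cells in the Dio2 values was not tested.

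**Figure D3:**
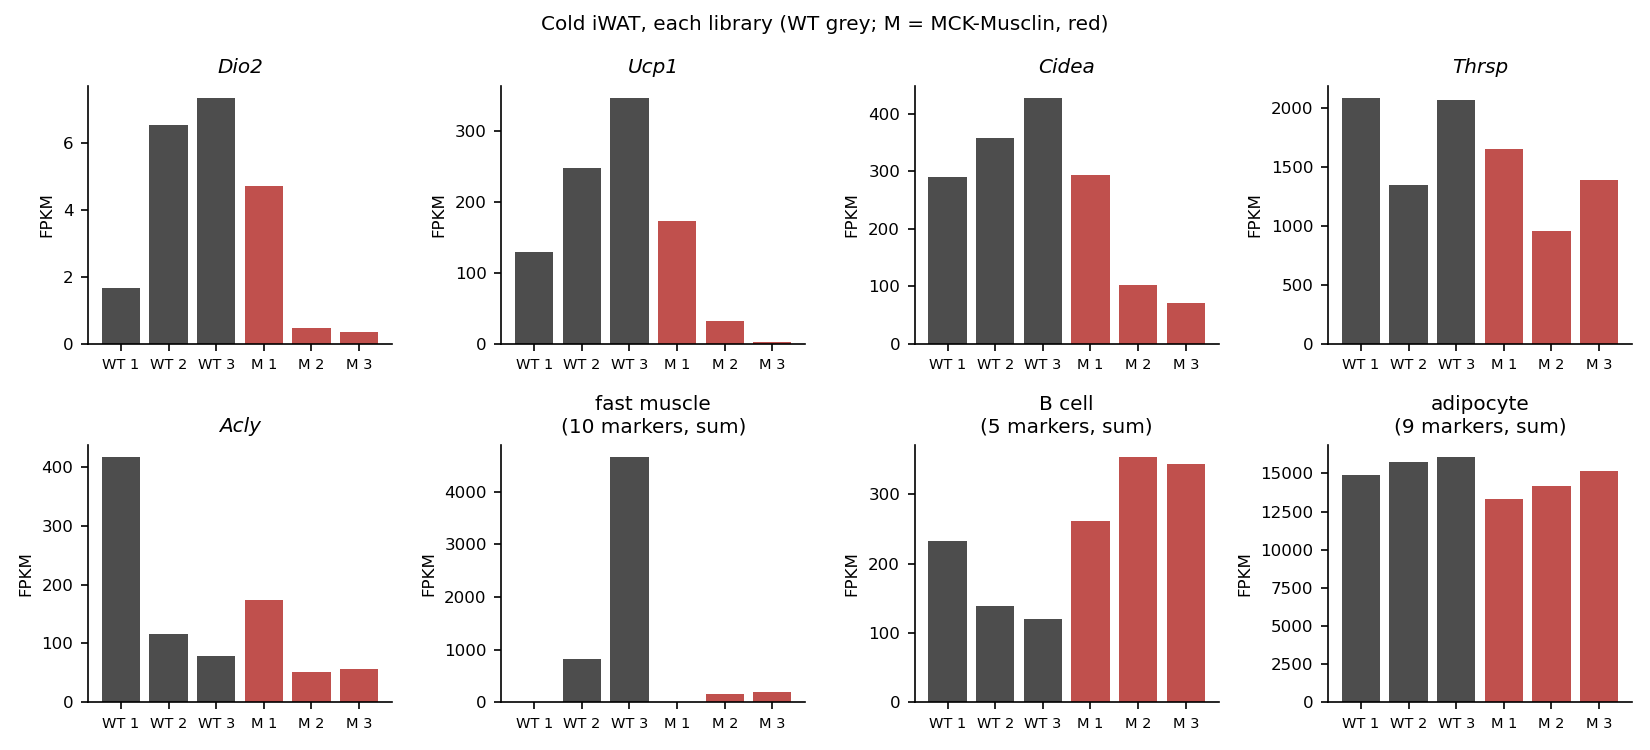
FPKM (vertical axis, from 0) in each cold iWAT library, WT in grey and MCK-Musclin (M) in red, for Dio2, Ucp1, Cidea, Thrsp, Acly and 3 sums of marker genes. Dio2 and Ucp1 are lowest in M 2 and M 3, and fast muscle markers reach 4656 in WT 3 and lie near 11 in WT 1 and M 1.

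The rest of the pathway in iWAT was read from lists of related genes, with counts at an unadjusted p under 0.05 because limma called 0 genes of each list after adjustment. Over all genes tested, 3.44% were lower and 13.1% were higher at that threshold. Of all genes, 38.7% had a log2 fold change below 0, and the median was 0.06 (0.25 after adipocyte centring). Upstream of Dio2, 7 of 8 genes of adrenergic and cyclic AMP signalling were tested, and 2 were lower (3 without MCK-Musclin library 1) and 0 higher, with a median log2 fold change of -0.22 (-0.03 after adipocyte centring). Adrb1, the beta-1 adrenergic receptor, was at 4.37, 2.46 and 3.28 FPKM in WT and at 1.10, 1.47 and 1.08 FPKM in MCK-Musclin. All 3 MCK-Musclin values of Adrb1 lay below all 3 WT values, as did those of 663 of all 12197 genes tested. Its limma log2 fold change was -0.96 (SE 0.18) with an adjusted p of 0.143. The other was Prkar2b, a regulatory subunit of protein kinase A (log2 fold change -0.45, adjusted p 0.148). Of 6 genes that tag the Dio2 enzyme for breakdown or rescue it, 5 were tested, and Wsb1 was higher (log2 fold change 0.50, adjusted p 0.181) and Usp33 lower (-0.26), with a list median of 0.08. Wsb1, a ubiquitin ligase adaptor for the enzyme, passed adjustment under adipocyte centring alone, with an adjusted p of 0.0499. Of 5 genes of selenoprotein synthesis, which the deiodinases need for their selenocysteine, 0 were lower or higher, with a median of -0.26 (-0.07 after adipocyte centring). Of 8 hormone transporters and binding proteins 4 were tested, with Slc16a10 lower (-0.29) and Slc7a5 higher (0.42) and a median of 0.10. Without MCK-Musclin library 1, the counts for enzyme turnover and selenoprotein synthesis were the same, and 0 transport genes were lower and 1 was higher. Dio3, which inactivates the hormone, was not listed in iWAT.

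Downstream of the receptors, 3 retinoid X receptor genes were tested with 0 lower or higher, and of 12 coregulators 0 were lower and 1 was higher, the corepressor subunit Gps2 (log2 fold change 0.32, adjusted p 0.207). That share was below the 13.1% of all genes that were higher, and the counts of both lists were the same without MCK-Musclin library 1. A log2 fold change below 0 was found for 2 of 3 receptor partners and 10 of 12 coregulators, beside 38.7% of all genes. The list medians were -0.12 for the receptor partners and -0.06 for the coregulators, and centring, which adds the same amount to every gene, put them at 0.07 and 0.12, below the all-gene median of 0.25 under it. Of 17 genes known to respond to thyroid hormone, 15 were tested, and 12 of the 15 were below 0, beside 38.7% of all genes. Among the 12 was Atp2a1, also a fast muscle marker. It was at 0.0416, 33.7 and 138 FPKM in WT and at 0.0434, 4.55 and 5.11 FPKM in MCK-Musclin. The part of muscle RNA in these values was not tested. The median log2 fold change of the 15 was -0.28 (-0.10 after adipocyte centring), beside 0.06 (0.25) over all genes. At an unadjusted p under 0.05, 0 were higher, beside 13.1% of all genes, and 4 were lower, beside 3.44%. These were Ucp1 (-2.998), Gpd2 (-0.93), Ppargc1a (-0.84) and Slc2a4 (-0.31), of which Ucp1 and Ppargc1a are also brown fat markers, with adjusted p from 0.186 to 0.290. That count was 2 when WT library 1 or 2 or MCK-Musclin library 2 was dropped, 1 when MCK-Musclin library 3 was, and 4 when MCK-Musclin library 1 was. Over all genes, 276 to 493 were lower in the 6 fits that each left out 1 library. Of 10 genes of fatty acid synthesis and its control, 10 were below 0, beside 38.7% of all genes, with a median log2 fold change of -0.58. After adipocyte centring 9 were below 0 and the median was -0.40, beside an all-gene median of 0.25. At an unadjusted limma p under 0.05 without centring, 4 were lower and 0 higher, beside 3.44% and 13.1%. The 4 were Elovl6 (-1.53), Mlxipl (-0.58), Acacb (-0.44) and Srebf1 (-0.40), with adjusted p from 0.190 to 0.303. The count was 1 when WT library 1 or MCK-Musclin library 2 or 3 was dropped, it was 6 when MCK-Musclin library 1 was dropped, and the list median was -0.28 without WT library 1. WT library 1 had the highest levels of Acly (417 FPKM, against 116 and 78.4 in the other WT libraries) and of Elovl6 (115 FPKM, against 50.3 and 30.8). This library had the most Acly and Elovl6 and the least Dio2 of the WT group, so within WT these genes and Dio2 did not rank the libraries alike.

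In cold BAT, 10893 genes were tested in the same way, and limma called 0 of the 4 members that passed the filter, beside 0.00918% of genes, the 1 gene being Ostn (log2 fold change 5.09, adjusted p 3.83e-06). At an unadjusted p under 0.05, 0 of the 4 were lower, beside 2.71% (295 genes), and 0 were higher, beside 2.18% (238 genes). At the study's thresholds for BAT, with a log2 fold change beyond 0.3, 0 were lower, beside 2.15% (234 genes). Leaving out 1 library gave adjusted counts from 1 to 4, with 4 when MCK-Musclin library 1 was dropped, 3 when its library 2 was and 2 when any 1 of the WT libraries was. Dio2 was listed at 16.4, 50.3 and 25.0 FPKM in WT and at 41.0, 18.8 and 30.6 FPKM in MCK-Musclin. High and low libraries occurred in both groups, and the means were 30.6 ± 17.6 and 30.1 ± 11.1 FPKM. The log2 fold change was 0.06 (SE 0.41, adjusted p 0.996), and dropping WT library 1, WT library 3 or MCK-Musclin library 1 turned it to -0.30, -0.01 and -0.19.

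The receptors and the target in BAT also overlapped between groups. Thra was at 30.8, 30.9 and 29.9 FPKM in WT and at 26.2, 35.2 and 27.8 FPKM in MCK-Musclin. The MCK-Musclin values of Thra lay on both sides of WT, and the log2 fold change of -0.05 (SE 0.12, adjusted p 0.988) turned to 0.051 under adipocyte centring and to 0.035 without MCK-Musclin library 1. Thrb was at 6.33, 7.18 and 7.38 FPKM in WT and at 7.01, 6.43 and 4.81 FPKM in MCK-Musclin. Its lowest value was MCK-Musclin library 3, and the log2 fold change was -0.18 (SE 0.15, adjusted p 0.968). Thrsp was at 3186, 2484 and 2962 FPKM in WT and at 2578, 2793 and 2639 FPKM in MCK-Musclin. The MCK-Musclin values lay inside the WT range, and the log2 fold change was -0.10 (SE 0.10, adjusted p 0.968). The median over the 4 members was -0.07 (0.02 under adipocyte centring), beside -0.01 over all genes (0.09 under that centring).

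Of the pathway lists in BAT, limma called 0 genes after adjustment. At an unadjusted p under 0.05, the lists of transport and binding (2 tested), enzyme turnover (6), selenoprotein synthesis (5), cyclic AMP signalling (7), receptor partners (3), coregulators (12) and fatty acid synthesis (10) had 0 lower and 0 higher. Their median log2 fold changes lay between -0.09 and 0.06, beside -0.01 over all genes. Of the hormone-responsive genes 14 were tested, and 1 was lower, beside 2.71% of all genes, and 2 were higher, beside 2.18%, with a median of 0.05 beside -0.01. The lower one was Klf9, a transcription factor gene, at 30.1, 36.2 and 36.5 FPKM in WT and at 6.17, 31.5 and 6.39 FPKM in MCK-Musclin. MCK-Musclin libraries 1 and 3 were far below WT and library 2 lay within it, and the log2 fold change was -1.55 (SE 0.54, adjusted p 0.968). Without MCK-Musclin library 2, Klf9 had a log2 fold change of -2.27 with an adjusted p of 0.00301, the lowest over its alternatives. In iWAT, Klf9 ranged widely within both groups, at 10.1, 12.01 and 67.7 FPKM in WT and at 12.4, 47.1 and 11.8 FPKM in MCK-Musclin. The higher ones in BAT were Atp2a1 (log2 fold change 0.83, adjusted p 0.929), also a fast muscle marker, and Ucp3 (0.21, adjusted p 0.968). Fast muscle markers (10 genes, Tnnc2 the most abundant) summed to 576, 810 and 511 FPKM in WT BAT and to 1822, 851 and 1221 FPKM in MCK-Musclin BAT. Of the 10, 9 were higher at an unadjusted limma p under 0.05, beside 2.18% of all genes. Their median log2 fold change was 0.87, and 0 were called after adjustment. The part of muscle RNA in the Atp2a1 value was not tested.

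**Figure D4:**
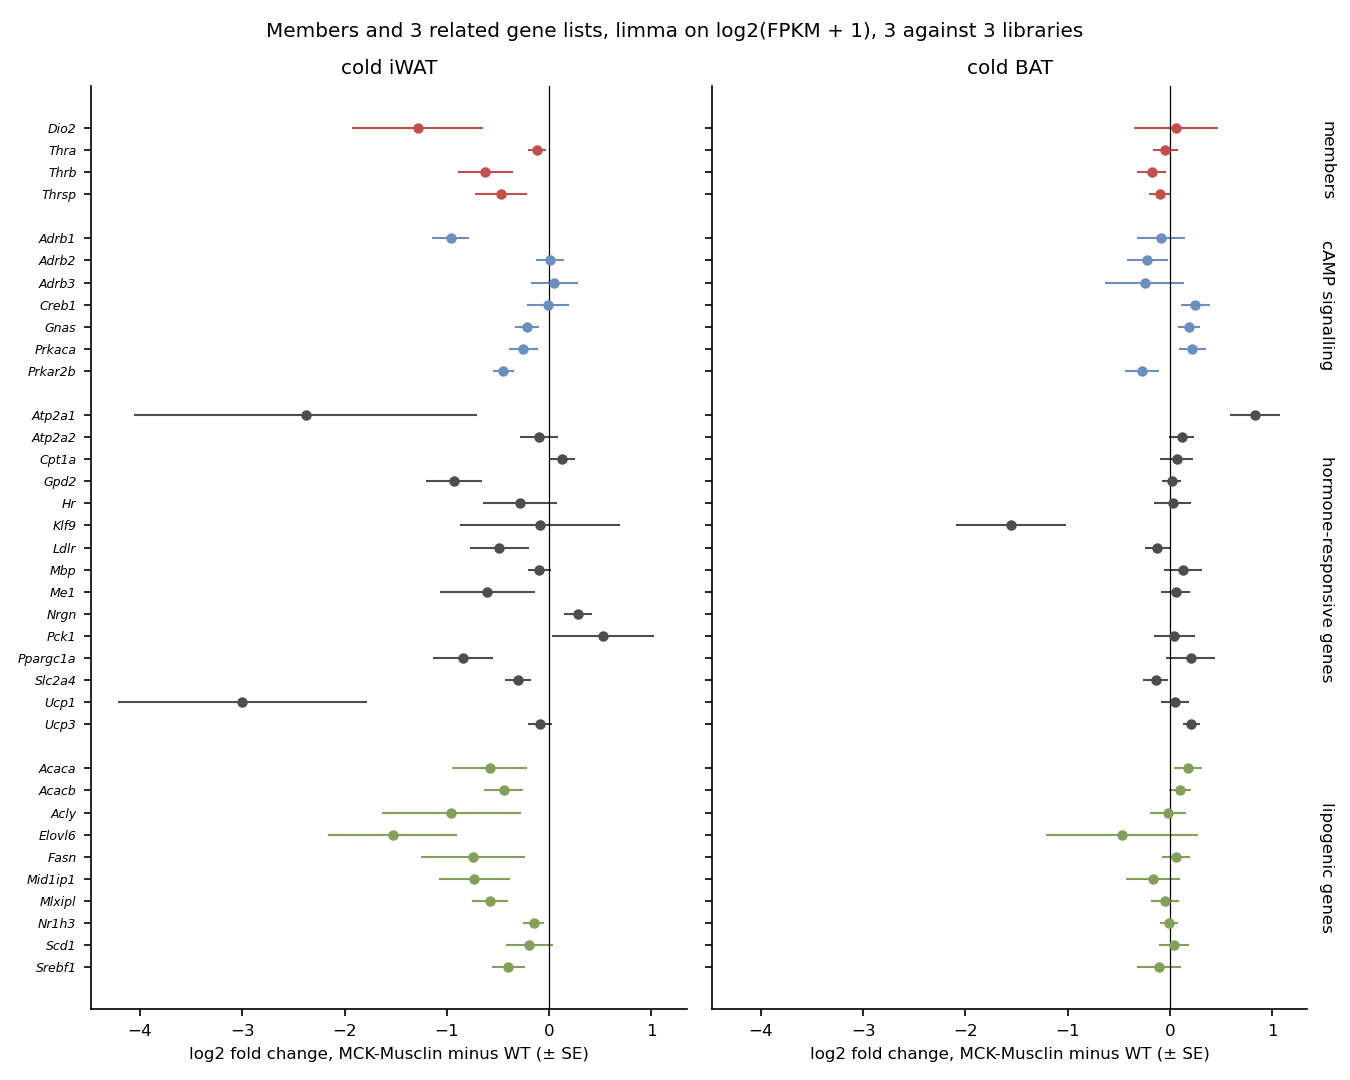
Log2 fold change of MCK-Musclin over WT with SE (horizontal axis, 3 against 3 libraries) for the tested members and 3 lists of related genes in cold iWAT and cold BAT. Dio2 lies at -1.29 in iWAT and 0.06 in BAT, and no gene shown passed an adjusted p of 0.05.

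Whether the genotype difference itself differed between the depots was tested by a limma interaction term over 11645 genes in 12 libraries. It called 0 of the 4 members, beside 0.00859% of genes, and 0 of the 4 had an unadjusted p under 0.05 with all libraries in. The 1 gene called was Tmod2 (1.29, SE 0.14, adjusted p 0.0157), named after its values were seen. The number called was 80 without iWAT WT library 1, 13 without iWAT MCK-Musclin library 1 and 0 with a pseudocount of 0.1. It was 4 when iWAT MCK-Musclin library 2 was dropped, 2 when iWAT WT library 2 or 3 or BAT WT library 1 was, and 0 when BAT WT library 2 or 3 or BAT MCK-Musclin library 1 or 2 was. Among genes of the lists, those called without iWAT MCK-Musclin library 1 were the brown fat markers Cidea (-2.00, adjusted p 0.0204, against 0.353 with all libraries) and Elovl3 (-2.53, adjusted p 0.0186, against 0.337). Those called without iWAT WT library 1 included the hormone-responsive and fast muscle gene Atp2a1 (-5.23, adjusted p 0.0411), besides B cell and other fast muscle markers. For Dio2 the iWAT change less the BAT change was -1.34 (SE 0.85) with an adjusted p of 0.565. It was -2.01 without iWAT MCK-Musclin library 1, with an adjusted p of 0.281 that was the lowest over the alternatives, and its unadjusted p was 0.0169 there and 0.0413 without iWAT WT library 1. The same difference was -0.07 for Thra, -0.44 for Thrb and -0.37 for Thrsp, with adjusted p of 0.908, 0.640 and 0.692, and that of Thra turned to 0.053 without BAT MCK-Musclin library 2. Leaving out 1 library at a time moved that of Thrb between -0.66 and -0.19 and that of Thrsp between -0.58 and -0.15.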

How the data were processed

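RNA-seq libraries from 7 WT tissues and from cold BAT and iWAT of 3 WT and 3 MCK-Musclin mice each were used. The authors trimmed reads with fastp, removed ribosomal reads with Bowtie2, aligned the rest to GRCm38 with HISAT2 and deposited FPKM per gene. The paper names StringTie for the FPKM, while Cuffdiff is also named among the upstream tools. Which of them made the deposited values was not settled. The deposited FPKM were used as they stand, and the read numbers behind them were unknown. The iWAT table also holds the authors' own comparison (fold change, p, FDR and group means), which was not used. Genes were matched by symbol and Ensembl ID, and positions came from GENCODE. Within iWAT and within BAT, log2(FPKM + 1) was fitted, for genes averaging 1 FPKM or more, by limma 3.58.1 (eBayes with trend, R 4.3.3) with no covariate, with Benjamini-Hochberg adjustment over all genes tested, and the interaction was fitted over the 12 cold libraries. Tissue levels were not tested, having 1 library each. Summaries used Python 3.11.15, numpy 2.4.6 and pandas 2.3.3, and figures matplotlib 3.10.9. Named genes were the members, genes of the pathway and marker lists, the 5 nearest genes in tissue pattern per member with at least 5 FPKM in a tissue, and genes with overlapping exons. The members and lists were chosen with earlier results of these data known. Alternatives changed the pseudocount (0.1), the filter (none, or a mean of 5 FPKM), the scaling (TPM, median-ratio, or centring on adipocyte markers), the replicate block, and each library in turn.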

Additional observations from a re-analysis of the deposited data

How the results depend on the processing

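In iWAT, 50 of 51 log2 fold changes of the 4 tested members under alternatives kept their direction and 0 were called (smallest adjusted p 0.196), in BAT 47 of 52 kept it with 0 called (0.908), and for the interaction 55 of 56 with 0 called (0.281). Dio2 had no value in iWAT at a mean FPKM of at least 5, which it did not reach. Centring on adipocyte markers put Thra at 0.065 in iWAT and at 0.051 in BAT, because it adds the same amount to the log2 fold change of every gene.

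Leaving out each library gave iWAT log2 fold changes of -1.96 to -0.92 for Dio2, -0.17 to -0.09 for Thra, -0.84 to -0.37 for Thrb and -0.68 to -0.25 for Thrsp. In BAT the ranges were -0.30 to 0.48 for Dio2, -0.17 to 0.035 for Thra, -0.27 to -0.04 for Thrb and -0.20 to -0.02 for Thrsp. For the interaction they were -2.01 to -0.98, -0.15 to 0.053, -0.66 to -0.19 and -0.58 to -0.15 in the same order. The adjusted count ranged from 0 to 86 in iWAT (86 without WT library 1), 1 to 4 in BAT and 0 to 80 for the interaction (80 without iWAT WT library 1). In iWAT the unadjusted counts ranged from 276 to 493 lower, 1119 to 1636 higher and 92 to 213 lower at the study cutoff. In BAT they ranged from 258 to 316, 184 to 297 and 240 to 301.

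Centring on adipocyte markers gave 316 adjusted, 42 lower, 3211 higher and 32 lower at the study cutoff in iWAT, and 70, 373 and 70 for the last 3 in BAT. TPM rescaling gave 657 lower and 201 at the study cutoff in iWAT, and median-ratio scaling gave 826 lower, 1038 higher and 187 at the cutoff. The filter at a mean of 5 FPKM, which tests fewer genes, gave 71 at the cutoff in iWAT, and 173 lower, 137 higher and 114 at the cutoff in BAT. Without a filter, BAT had 560 lower and 494 higher. The interaction count was 0 with a pseudocount of 0.1. The cause of these shifts between scalings was not tested.

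With the replicate number as a block, iWAT had 0 adjusted, 478 lower and 1478 higher, and Thrsp had an unadjusted p under 0.05 with an adjusted p of 0.231, within 0.231 to 0.563 for the 4 members. Residuals of same-numbered WT and MCK-Musclin libraries correlated at r = 0.235, 0.0615 and 0.107 in iWAT and at -0.0951, -0.00464 and 0.00937 in BAT, across genes that are not independent, and the libraries were not treated as pairs.

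Over the 7 tissues, the highest tissue's share of summed FPKM was 83.2% for Dio1 (81.7% by TPM, 89.96% by median-ratio scaling), 57.6% for Dio2 (70.0%, 50.4%), 50.1% for Thra (57.6%, 44.4%), 22.6% for Thrb (29.4%, 22.7%) and 37.2% for Thrsp (35.6%, 45.5%). The ratio of BAT to iWAT moved to 8.18 for Dio2, 0.737 for Thra, 1.10 for Thrb and 2.17 for Thrsp after rescaling over shared genes. Read numbers were unknown, so how far depth limits low values such as Dio2 in iWAT could not be given.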
